A study of Mus musculus with 16 samples.

Results

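The Hox cluster genes encode homeodomain transcription factors and lie in the Hoxa, Hoxb, Hoxc and Hoxd clusters on mouse chromosomes 6, 11, 15 and 2. Their RNA was followed in mouse embryonic stem cells (mESCs) of 3 lines grown in 2 media. Members were all non-control array probes whose RefSeq identifier mapped to a symbol made of Hoxa, Hoxb, Hoxc or Hoxd and a paralogue number. This gave 44 probes for 39 genes, of 55681 non-control probes and 21154 named genes on the array. The Hoxa cluster held 11 of the genes, Hoxb 10, Hoxc 9 and Hoxd 9. For 5 genes, among them Hoxa9, Hoxa13, Hoxb3 and Hoxd11, there were 2 probes each.

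In the embryo, Hox genes are switched on in the order in which they lie along each cluster, from the low paralogue numbers, which pattern the hindbrain and neck, to the high ones, which pattern the tail end and the limbs. Retinoic acid, Wnt signals and the Cdx homeodomain proteins are known inducers. In mESCs the clusters are textbook targets of the Polycomb complexes, which place repressive marks on histones at silent developmental genes. The arrays measured RNA only, so no Polycomb mark and no DNA methylation was measured here and the Polycomb part of the description was not checked.

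Total RNA was hybridised to 16 one-colour arrays, 1 per sample. J1 cells are wild-type male mESCs. TKO cells lack the DNA methyltransferases Dnmt1, Dnmt3a and Dnmt3b, and 3B3l cells (written 3B3-3l in the labels) lack Dnmt3a and Dnmt3b and carry exogenous, constitutively expressed Dnmt3b and Dnmt3l. In serum there were 4 arrays of J1, 2 of TKO and 2 of 3B3l, and in 2i 3 of J1, 3 of TKO and 2 of 3B3l, and the groups are named by line and medium (J1-serum, J1-2i and so on). Serum medium held LIF at 500 U/ml. Medium with 2 inhibitors (2i) held 1 µM PD0325901, which blocks MEK, 3 µM CHIR99021, which blocks GSK3 and so raises Wnt signalling, and LIF at 1000 U/ml, for 2 weeks. J1 cells in serum grew on mitomycin C-inactivated feeder cells and the other lines without feeders, so medium, feeders and line cannot be told apart in every comparison with J1-serum. Nothing in the labels says that replicates came from separate cultures, so p-values measure only the spread between these arrays.

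Signals are given as scaled log2 signal, which is log2 of the processed fluorescence after setting the 75th percentile of every array to a common value. Before scaling, that percentile lay at an intensity between 1019 and 1835, and 39.7% to 49% of spots on an array were well above background by the scanner software's flag. Arrays lay on 3 slides scanned on 2 days. The 4 arrays of 3B3l shared a slide with J1-serum replicate 1 and with no other array. All 10 mESC markers were well above background on every array of every group. The level of 14 fibroblast markers, summed on the linear scale, was 127400 to 155000 in J1-serum and 80220 to 121000 in the other groups. Dcn, a matrix proteoglycan made by fibroblasts, was at 11.50 to 11.75 in J1-serum and at 8.41 or lower elsewhere. Summed primitive endoderm markers were at 63490 to 79880 in J1-serum and at 5912 to 14870 elsewhere. In bulk RNA, fewer cells of a type and less RNA per cell cannot be told apart.

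The 250 bases before the annotated start of 6 Hox genes are shown because these genes carry the patterns below. Hoxc4, Hoxd4, Hoxd8 and Hoxd9 were higher in 2i in all 3 lines, Hoxa7 in TKO and 3B3l, and Hoxa6 in none. Sequences are from RefSeq on GRCm38.p6, written 5′ to 3′ on the strand of the gene, with CpG dinucleotides, the sites of DNA methylation, in capitals.
Hoxc4 (chr15:103034145-103034394, plus strand): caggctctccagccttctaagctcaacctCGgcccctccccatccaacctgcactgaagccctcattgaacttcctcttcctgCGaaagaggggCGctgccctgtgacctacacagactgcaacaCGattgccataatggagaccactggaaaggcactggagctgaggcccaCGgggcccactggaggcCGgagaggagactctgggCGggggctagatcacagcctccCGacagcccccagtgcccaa
Hoxd4 (chr2:74721728-74721977, plus strand): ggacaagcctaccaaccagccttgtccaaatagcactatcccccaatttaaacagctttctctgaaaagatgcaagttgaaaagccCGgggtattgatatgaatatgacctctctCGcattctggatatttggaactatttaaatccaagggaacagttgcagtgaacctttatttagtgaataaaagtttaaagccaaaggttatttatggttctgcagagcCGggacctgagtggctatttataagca
Hoxd8 (chr2:74704365-74704614, plus strand): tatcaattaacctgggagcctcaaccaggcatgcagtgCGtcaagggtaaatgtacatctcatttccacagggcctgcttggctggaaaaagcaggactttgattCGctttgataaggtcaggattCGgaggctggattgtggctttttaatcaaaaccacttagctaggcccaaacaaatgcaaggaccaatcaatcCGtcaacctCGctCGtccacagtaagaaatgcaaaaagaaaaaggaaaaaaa
Hoxd9 (chr2:74697513-74697762, plus strand): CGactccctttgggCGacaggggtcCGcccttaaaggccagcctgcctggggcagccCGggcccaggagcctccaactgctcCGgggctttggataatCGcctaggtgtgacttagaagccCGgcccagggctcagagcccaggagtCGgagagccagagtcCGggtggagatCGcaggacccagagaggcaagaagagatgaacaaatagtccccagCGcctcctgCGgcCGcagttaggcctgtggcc
Hoxa7 (chr6:52218574-52218823, minus strand): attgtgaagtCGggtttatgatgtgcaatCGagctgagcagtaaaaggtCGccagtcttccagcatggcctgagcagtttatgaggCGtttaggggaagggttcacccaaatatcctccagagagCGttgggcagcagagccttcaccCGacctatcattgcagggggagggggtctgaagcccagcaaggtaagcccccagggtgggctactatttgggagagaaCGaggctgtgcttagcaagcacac
Hoxa6 (chr6:52208673-52208922, minus strand): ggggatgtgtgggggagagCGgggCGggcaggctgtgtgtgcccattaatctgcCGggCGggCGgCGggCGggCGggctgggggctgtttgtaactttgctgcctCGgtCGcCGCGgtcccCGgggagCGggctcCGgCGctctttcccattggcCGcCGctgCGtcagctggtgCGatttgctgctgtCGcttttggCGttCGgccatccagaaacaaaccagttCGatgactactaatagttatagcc

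The Hoxa6 window held 24 CpGs, the Hoxd9 window 13, Hoxc4 8, Hoxa7 7, Hoxd8 6 and Hoxd4 3, and that of Hoxd13, called higher in J1 and 3B3l and not printed, held 31. Windows were given for 22 of the 39 Hox genes (24 windows) and for 10 of the 18 genes tested below. The median was 12.5 CpGs in the Hox windows and 6 in all 32851 windows. The ratio of observed to expected CpGs passed 0.6 in 13 of 24 Hox windows (54.2%) and in 34% of all windows. In all, 5 short motifs were searched on both strands. The Cdx motif TTTATG was in 5 Hox windows (20.8%, against 10.8% of all windows), with 2 matches in Hoxa7 and 1 in Hoxd4. The motif AGGTCA, searched for the retinoic acid receptor but not specific to it, was in 6 Hox windows (25%, against 14%), among them Hoxb4, Hoxc4, Hoxd4 and Hoxd8. The TCF/LEF motif CTTTGA was in 3 (12.5%, against 13.8%), with 2 matches in Hoxd8. The E-box CACGTG was in 4 (16.7%, against 6.02%) and the Pbx-Hox motif TGATTNAT in 2 (8.33%, against 2.82%). A match describes these letters in the window and is not a measured binding site.

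More Hox genes were detected in 2i than in serum in each line. A gene counted as detected in a group when a probe was well above background on every array. By this rule 6 of 39 Hox genes (15.4%) were detected in J1-serum and 12 (30.8%) in J1-2i. TKO went from 9 (23.1%) to 15 (38.5%) and 3B3l from 5 (12.8%) to 11 (28.2%). The rule asks for 4 arrays in J1-serum and for 3 in J1-2i, and counting genes well above background on at least 1 array gave 14 in J1-serum and 15 in J1-2i, 10 and 17 in TKO, and 6 and 13 in 3B3l. Over all named genes the share was 56.9% in J1-serum and 56.3% in J1-2i, 60.6% and 55.9% in TKO, and 56.1% and 53.1% in 3B3l. So the Hox share was higher in 2i in each line while the share over all genes was lower. No test was made of these counts. No Hox spot was saturated.

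On single arrays the number of detected Hox genes was 10, 13, 8 and 8 in J1-serum and 12, 14 and 15 in J1-2i. It was 9 and 10 in TKO-serum, 15, 16 and 17 in TKO-2i, 6 and 5 in 3B3l-serum, and 13 and 11 in 3B3l-2i. The media overlapped in J1, where J1-serum replicate 2 reached 13, and did not overlap in TKO or 3B3l. The Hoxd cluster differed plainly in J1 and TKO, with 0, 1, 0 and 0 genes in J1-serum against 4 on each J1-2i array and 1 on each TKO-serum array against 4 on each TKO-2i array. In 3B3l it went from 0 on both serum arrays to 1 on both 2i arrays. The lowest signal flagged as well above background was at 7.91 and 7.90 on the 3B3l-2i arrays. It was at 6.65 to 6.98 in J1-2i and at 6.77 to 6.93 in TKO-2i, so the flag does not use the same level in each line. Hoxd8 (7.42 and 7.96) and Hoxd9 (7.54 and 7.51) were not flagged in 3B3l-2i. The Hoxa cluster had 4 to 6 detected genes on every array of every group. In all, 18 genes never rose well above background on any array, 4 in Hoxa, 5 in Hoxb, 4 in Hoxc and 5 in Hoxd.

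**Figure D1:**
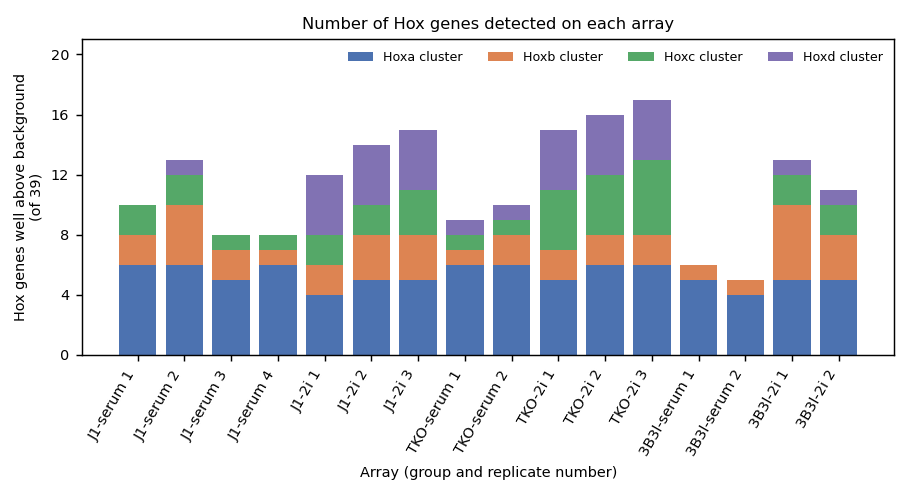
Number of Hox genes, of 39, with a probe well above background on each array (vertical axis), stacked by cluster, for the 16 arrays named by group and replicate (horizontal axis). The Hoxd part of the bars holds 4 genes on each J1-2i and TKO-2i array and 0 or 1 on each serum array.

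**Figure D2:**
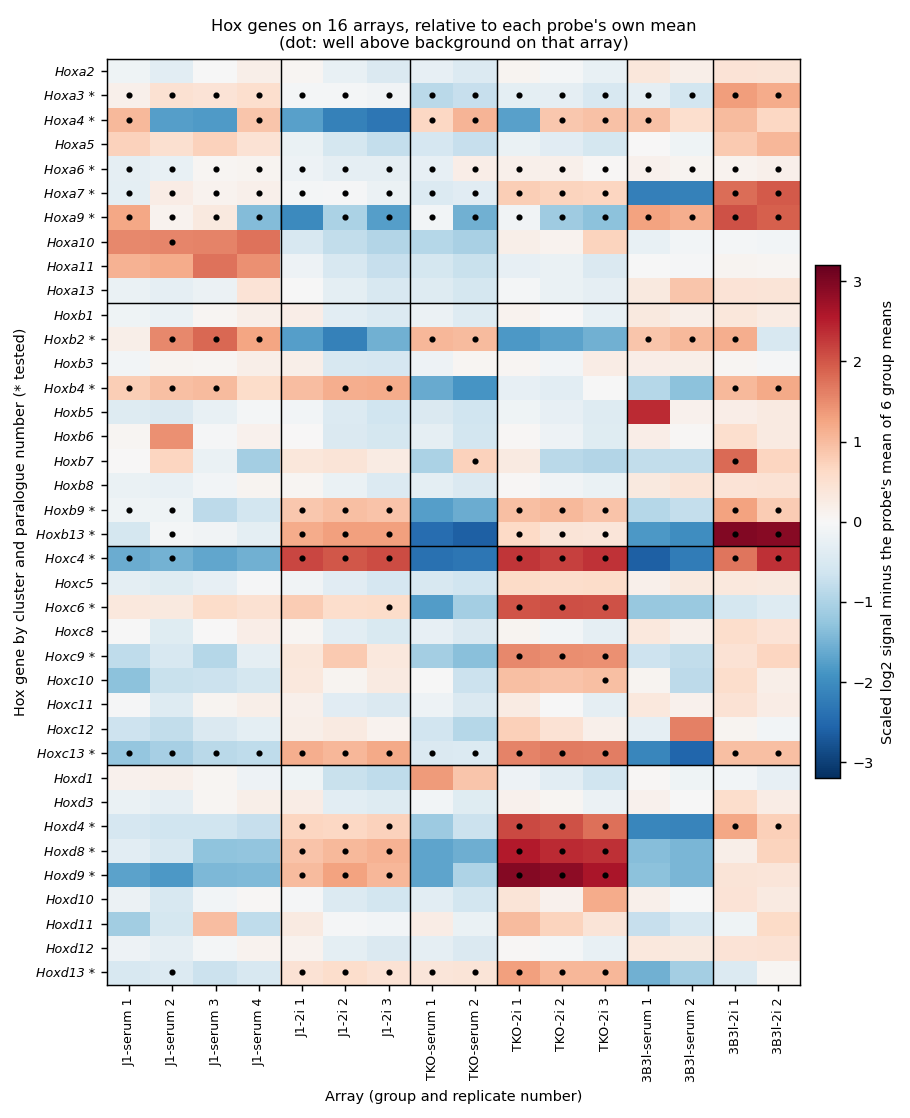
Scaled log2 signal of the Hox genes reported here by name (rows, by cluster and paralogue number, 1 probe a gene) on each array (columns), relative to the probe's own mean of the 6 group means; red is higher and blue lower, a dot marks a value well above background and a star a tested gene. The rows of Hoxc4, Hoxc13, Hoxd4, Hoxd8 and Hoxd9 are red with dots in J1-2i and TKO-2i, while Hoxa10 and Hoxa11 are red in J1-serum.

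Tests used limma with 6 group means over all 16 arrays and Benjamini-Hochberg adjustment. The threshold for a call was 2-fold together with an adjusted p no higher than 0.05. Testing was limited to probes that at least 1 group showed well above background on all of its arrays, which left 18 Hox genes and 13917 named genes. Because a gene detected in 1 medium alone enters the test through that medium, counts over the 18 describe those genes and are not a measure of the clusters. With every probe tested instead, 10 of 39 Hox genes (25.6%) were higher and 5 (12.8%) lower with 2i in J1, where 8.74% of all genes were higher and 11.3% lower. In TKO, 16 (41%) were higher and 2 (5.13%) lower, against 5.82% and 7.71% of all genes. In 3B3l, 14 (35.9%) were higher and 0 lower, against 4.4% and 5.96%. The median log2 difference over all 44 Hox probes was nonetheless close to that over all probes, at -0.12 against -0.11 in J1, 0.30 against 0.24 in TKO and 0.28 against 0.11 in 3B3l.

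Among the 18 tested genes, 9 were called higher and 2 lower with 2i in J1, where 11.6% of tested genes were called higher and 13.7% lower. In TKO 12 were higher and 1 lower, against 7.66% and 10.1%. In 3B3l 13 were higher and 0 lower, against 6.32% and 8.57%, and 0 of the 18 were lower at an unadjusted limma p under 0.05. The tested genes of Hoxd (Hoxd4, Hoxd8, Hoxd9 and Hoxd13) were called higher in every line, except Hoxd13 in TKO. Hoxc4, Hoxc9 and Hoxc13, and Hoxb9 and Hoxb13, were called higher in all 3 lines. In Hoxa no tested gene was called higher in J1, whereas Hoxa7 was called higher in TKO and 3B3l and Hoxa3 in 3B3l. Hoxb2 was called lower in J1 and TKO and Hoxa9 in J1. All 3 serum groups were the control of 1 comparison each, so the lines share no control here.

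**Figure D3:**
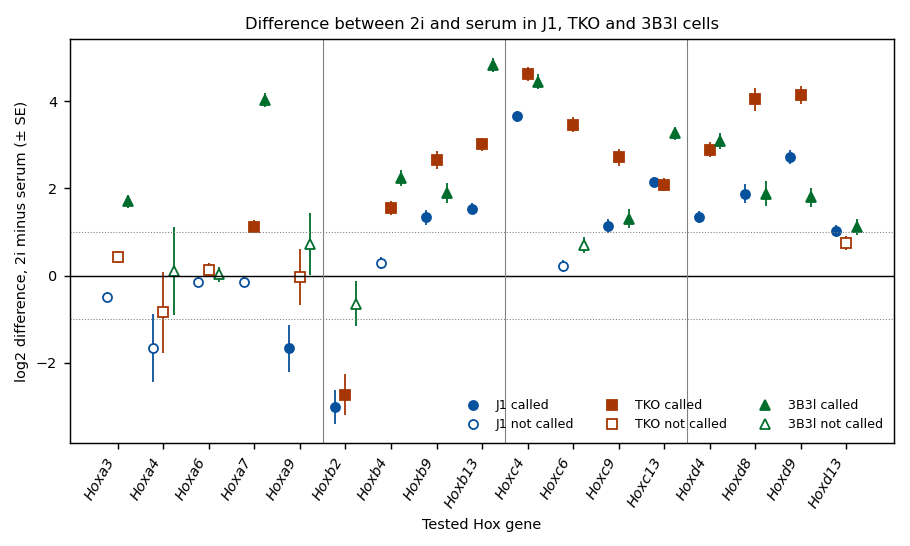
log2 difference between 2i and serum (vertical axis, ± SE) of the tested Hox genes reported here by name (horizontal axis) in J1 (circles), TKO (squares) and 3B3l (triangles); filled symbols passed the test and the 2-fold limit, and dotted lines mark 2-fold. Symbols of all 3 lines stand above 2-fold for Hoxb9, Hoxb13, Hoxc4, Hoxc9, Hoxc13, Hoxd4, Hoxd8 and Hoxd9, and Hoxb2 stands below it in J1 and TKO.

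Hoxc4, a gene of the neck and upper trunk, was called higher with 2i in every line. It was at 7.77, 7.85, 7.72 and 7.82 in J1-serum and at 11.51, 11.36 and 11.46 in J1-2i. TKO-serum was at 6.99 and 7.05 and TKO-2i at 11.66, 11.57 and 11.69, and 3B3l-serum at 6.77 and 7.12 against 11.09 and 11.71 in 3B3l-2i. The media were far apart in every line, and serum values were near background. The log2 difference was 3.65 (SE 0.13) in J1, where 2 of 4 serum arrays were well above background (limma, adjusted p 3.7e-10). Where the serum group was not well above background, the rise in TKO was at least 24.6-fold and that in 3B3l at least 12.1-fold (limma, adjusted p 6.6e-10 and 3.7e-09). Such a lower bound sets the mean in the bright group against the lowest signal that counts as well above background on each dim array, or against the probe's own signal there where that was the higher of the pair, as it was for Hoxc4 in TKO-serum. That lowest signal was at 8.03 and 7.58 in 3B3l-serum and at 6.88 and 6.45 in TKO-serum, so the sizes of bounds do not compare between lines.

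Hoxc13, which acts in hair follicles and the tail end, was the gene of this cluster measured on every array of J1 and TKO. J1-serum was at 7.95, 8.11, 8.30 and 8.36 and J1-2i at 10.34, 10.24 and 10.39. TKO-serum was at 8.72 and 8.73, TKO-2i at 10.77, 10.85 and 10.82, 3B3l-serum at 7.10 and 6.64, and 3B3l-2i at 10.13 on both arrays. No 2i value overlapped the serum values of its line. The log2 difference was 2.14 (SE 0.12) in J1 and 2.09 (SE 0.14) in TKO, and in 3B3l the rise was at least 5.01-fold (limma, adjusted p 1.5e-08, 2.3e-07 and 1.6e-08).

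Hoxc9, a gene of the trunk, was well above background in TKO-2i alone. It was at 5.53 and 5.27 in TKO-serum and at 8.16, 8.12 and 8.07 in TKO-2i, at least 2.73-fold higher (limma, adjusted p 3e-07). In J1 it was at 5.71 to 6.32 in serum and 6.95 to 7.45 in 2i, and in 3B3l at 5.94 and 5.83 against 7.07 and 7.32. Both pairs of groups passed the test with neither medium well above background, so no fold is given for them. Hoxc6, which patterns the thorax, was called in TKO. TKO-serum was at 5.17 and 5.88 and TKO-2i at 8.97, 9.01 and 8.99, at least 5.02-fold higher (limma, adjusted p 1.4e-08). J1-serum at 7.27 to 7.56 and J1-2i at 7.53 to 7.76 overlapped, and 3B3l went from 5.75 and 5.77 to 6.39 and 6.53 without a call (0.70 on the log2 scale). It was called in 3B3l with quantile normalization (1.07; limma, adjusted p 6e-04) and in the authors' table (1.08; limma, adjusted p 0.00047). The responses of Hoxc6 in TKO and J1 differed in the test (limma, adjusted p 7.5e-07), but neither serum group was well above background, so the fitted log2 difference of 3.25 (SE 0.22) is no measured size.

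In the Hoxd cluster, Hoxd4, Hoxd8 and Hoxd9 were not well above background on any serum array of any line. Hoxd4, which patterns the neck, was at 7.20 to 7.39 in J1-serum and at 8.62, 8.61 and 8.67 in J1-2i. TKO-serum was at 6.77 and 7.26 and TKO-2i at 10.05, 9.98 and 9.69, and 3B3l went from 5.85 and 5.82 to 9.16 and 8.70. J1 rose at least 2.32-fold, TKO at least 7.14-fold and 3B3l at least 2.18-fold (limma, adjusted p 4.4e-06, 5e-08 and 7.8e-08).

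Hoxd8, a trunk gene, was at 6.89, 6.72, 5.96 and 5.96 in J1-serum and at 8.16, 8.26 and 8.35 in J1-2i, at least 2.10-fold higher. In TKO it was at 5.56 and 5.67 in serum and at 9.78, 9.62 and 9.57 in 2i, at least 7.96-fold higher. In 3B3l it was at 5.87 and 5.77 in serum and at 7.42 and 7.96 in 2i, not well above background in either medium. All 3 differences passed the test (limma, adjusted p 1.3e-05, 1.3e-07 and 0.00033). Hoxd9, the neighbour of Hoxd8, had the same order of the 2i groups. J1 went from 5.28 to 5.72 in serum to 8.14, 8.41 and 8.20 in 2i, at least 2.66-fold higher. TKO went from 5.45 and 6.14 to 10.07, 9.99 and 9.74, at least 9.65-fold higher, and 3B3l from 5.81 and 5.65 to 7.54 and 7.51, not well above background in either medium (limma, adjusted p 2.9e-08, 1e-08 and 4.4e-05).

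Hoxd13, which shapes digits and the genital region, was at 7.49, 7.56, 7.31 and 7.50 in J1-serum and at 8.46, 8.55 and 8.46 in J1-2i. The log2 difference of 1.02 (SE 0.14) was just past 2-fold, with 1 of 4 serum arrays well above background (limma, adjusted p 4.3e-05). It fell to 0.97 without J1-serum replicate 3 and to 0.99 without J1-2i replicate 2, which ends the call. TKO was at 8.40 and 8.41 in serum and at 9.32, 9.07 and 9.07 in 2i, a difference of 0.75 (SE 0.16) that did not reach 2-fold. In 3B3l the values, 6.46 and 6.92 against 7.56 and 8.06, were not well above background in either medium, although the difference passed the test.

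Hoxb9, a thoracic gene, was at 8.14, 8.16, 7.44 and 7.70 in J1-serum and at 9.14, 9.25 and 9.19 in J1-2i. TKO-serum was at 6.52 and 6.70 and TKO-2i at 9.25, 9.33 and 9.19, while 3B3l-serum was at 7.38 and 7.53 and 3B3l-2i at 9.59 and 9.11. The 2i groups of the 3 lines lay close together, and the TKO-serum arrays were the lowest. With 2 of 4 serum arrays well above background, the log2 difference in J1 was 1.33 (SE 0.17), and TKO rose at least 5.51-fold and 3B3l at least 2.92-fold (limma, adjusted p 2.7e-05, 5.9e-07 and 3.6e-05). Hoxb13, at the tail end of its cluster and known in prostate and tail, was at 7.23, 7.73, 7.68 and 7.49 in J1-serum and at 8.99, 9.12 and 9.10 in J1-2i. TKO went from 5.37 and 5.18 to 8.45, 8.22 and 8.19, and 3B3l from 5.97 and 5.82 to 10.76 and 10.71. With 1 of 4 serum arrays well above background, the log2 difference in J1 was 1.54 (SE 0.12), and TKO rose at least 3.08-fold and 3B3l at least 7.63-fold (limma, adjusted p 3.6e-07, 1.1e-08 and 1.6e-09).

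With normexp background correction in place of the processed signal, the J1 differences of Hoxb9, Hoxc9, Hoxd4, Hoxd8 and Hoxd13 fell below 2-fold, at 0.96, 0.46, 0.83, 0.94 and 0.73 on the log2 scale. This correction was run with an offset of 50 added to the signals, which by itself makes the differences of dim probes smaller. Hoxc9 also fell to 0.95 in J1 when only the arrays of the first slide were used, and to 0.99 without J1-2i replicate 2. In 3B3l normexp took Hoxc9 to 0.97 and Hoxd13 to 0.44 (limma, adjusted p 0.06 for Hoxd13), and Hoxd13 was also under 2-fold there without 3B3l-serum replicate 1 (0.88) or 3B3l-2i replicate 2 (0.87).

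**Figure D4:**
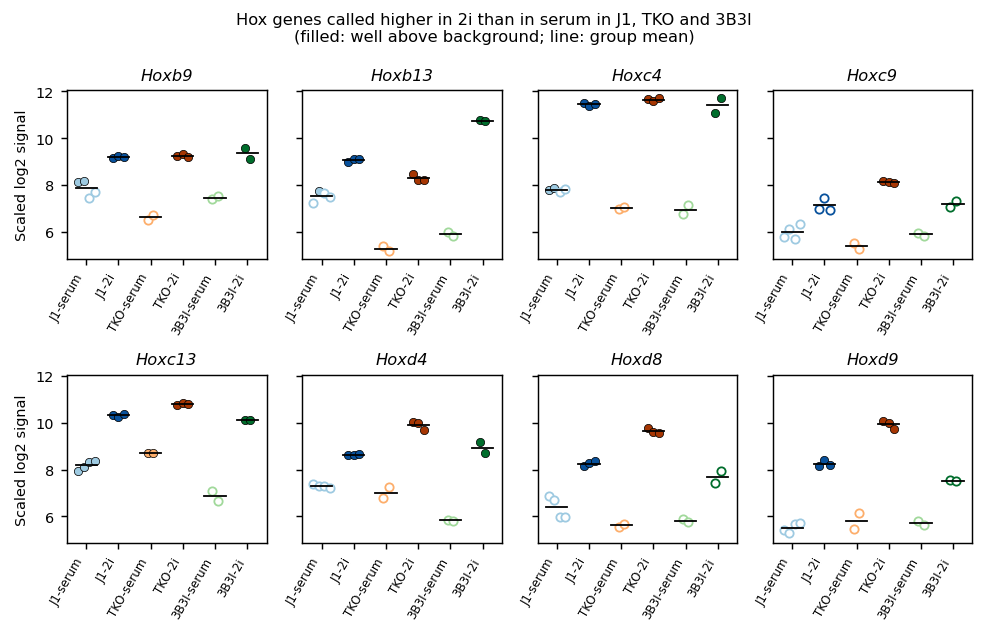
Scaled log2 signal (vertical axis) of the 8 Hox genes called higher in 2i in all 3 lines, by group (horizontal axis), with 1 point an array, filled where well above background, and a line at the group mean. No 2i array overlaps the serum arrays of its own line in any panel, and Hoxd4, Hoxd8 and Hoxd9 are highest in TKO-2i.

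In the Hoxa cluster Hoxa3 and Hoxa7 differed between lines in their response to 2i. Hoxa3, a gene of the pharyngeal arches and neck, was well above background on all 16 arrays. It was at 9.03 to 9.40 in J1-serum and 8.75 to 8.80 in J1-2i, at 8.07 ± 0.09 (mean ± SD, n = 2) in TKO-serum, and at 8.34 to 8.57 in TKO-2i. In 3B3l it went from 8.57 and 8.27 to 10.21 and 10.05, a log2 difference of 1.71 (SE 0.15; limma, adjusted p 2.5e-06). That exceeded the J1 response by 2.20 (SE 0.19), while the differences in J1 (-0.49) and TKO (0.42) did not reach 2-fold. Its annotated span overlaps those of Hoxa4, Hoxa5 and Hoxa6.

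Hoxa7, a trunk gene, was called higher with 2i in TKO and 3B3l. It was at 7.80, 8.37, 8.23 and 8.28 in J1-serum and at 8.06, 8.08 and 7.94 in J1-2i, which overlapped. TKO-serum was at 7.69 and 7.77 and TKO-2i at 8.91, 8.82 and 8.81, and 3B3l went from 5.94 and 5.97, not well above background, to 9.90 and 10.07. The log2 difference was -0.14 (SE 0.12) in J1 and 1.12 (SE 0.14) in TKO, and the rise was at least 4.53-fold in 3B3l (limma, adjusted p 5.7e-05 for TKO and 3.7e-09 for 3B3l). The response in TKO exceeded that in J1 by 1.26 on the log2 scale. The fitted excess in 3B3l was 4.18, a size that rests on a 3B3l-serum level not well above background. With normexp the TKO difference was 0.81 and its excess over J1 0.93, and neither passed 2-fold.

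Hoxb4, a gene of the neck also known for expanding blood stem cells, was well above background on some J1 arrays and on both 3B3l-2i arrays. J1 was at 7.62 to 8.05 in serum and 8.03 to 8.23 in 2i, with no call. TKO went from 5.41 and 5.14 to 6.77, 6.69 and 7.02, not well above background in either medium although the difference passed the test. In 3B3l it went from 6.11 and 5.72 to 8.08 and 8.24, at least 1.28-fold higher (limma, adjusted p 1.4e-06).

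Hoxa6 was uncalled in all 3 lines. Its values ran from 8.14 to 8.65 over the 16 arrays, well above background on each, and the log2 differences with 2i were -0.14, 0.13 and 0.03 in J1, TKO and 3B3l.

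The genes lower in 2i were Hoxb2 and Hoxa9. Hoxb2, which patterns the hindbrain and facial nerve, was at 7.81, 9.14, 9.44 and 8.86 in J1-serum and at 5.84, 5.44 and 6.08 in J1-2i. TKO went from 8.67 and 8.63 to 5.77, 5.89 and 6.08, and 3B3l was at 8.50 and 8.65 in serum and at 8.77 and 7.09 in 2i. In J1 and TKO every serum array was above every 2i array, whereas the 3B3l media overlapped. Hoxb2 passed the background flag on 3 of the 4 arrays of J1-serum, and was at least 4.02-fold lower with 2i in J1 and at least 3.42-fold lower in TKO (limma, adjusted p 3.4e-05 and 6e-04). The 3B3l difference was -0.65 (SE 0.52), with no call. The 3B3l minus J1 difference of the responses, here a smaller drop in 3B3l, was fitted at 2.37 (SE 0.65, limma, adjusted p 0.016), with J1-2i not well above background. It was a call that was lost without 3B3l-serum replicate 1 (2.30, adjusted p 0.058) or 3B3l-2i replicate 1 (1.53, adjusted p 0.084).

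Hoxa9, a gene of the trunk and limbs that is also prominent in leukaemia, varied widely between replicates. J1-serum was at 10.91, 9.77, 9.99 and 8.27 and J1-2i at 7.64, 8.66 and 7.90, which overlapped. The J1 difference of -1.67 (SE 0.54), with 2 of 3 J1-2i arrays well above background, passed the test (limma, adjusted p 0.022). It did not pass without J1-serum replicate 1 (-1.28, adjusted p 0.058) or within the first slide (-1.36, adjusted p 0.14). TKO was at 9.59 and 8.12 in serum and at 9.56, 8.53 and 8.36 in 2i, and 3B3l at 10.96 and 10.84 against 11.70 and 11.57, without a call in either. A second Hoxa9 probe stayed between 5.17 and 6.95. Hoxa4, a neck gene, was uncalled with 2i in all lines, and its values within J1-serum alone ran from 5.57 to 8.41. In J1 it was called lower with normexp (-1.29; limma, adjusted p 0.026) and without J1-serum replicate 2 (-2.12, adjusted p 0.043) or replicate 3 (-2.13, adjusted p 0.042).

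The 21 untested genes were Hoxa2, Hoxa5, Hoxa10, Hoxa11, Hoxa13, Hoxb1, Hoxb3, Hoxb5, Hoxb6, Hoxb7, Hoxb8, Hoxc5, Hoxc8, Hoxc10, Hoxc11, Hoxc12, Hoxd1, Hoxd3, Hoxd10, Hoxd11 and Hoxd12. Of these, Hoxa10, Hoxb7 and Hoxc10 were well above background on some array. In the fit without the filter, Hoxc10 was called higher and Hoxa5, Hoxa10 and Hoxa11 lower with 2i in J1, Hoxa10, Hoxc5, Hoxc10 and Hoxd10 higher and Hoxd1 lower in TKO, and Hoxa5 higher in 3B3l. Hoxa10 and Hoxa11 are given in full after their values were seen. Hoxa10, a gene of the lower back and uterus, was at 7.73, 7.77, 7.79 and 7.94 in J1-serum and between 5.15 and 6.91 on the other 12 arrays. Hoxa11, its neighbour with a role in limb and kidney, was at 7.03, 7.10, 7.65 and 7.37 in J1-serum and between 5.19 and 6.01 elsewhere. Each J1-serum array was above all the others for both genes, but only 1 of those arrays was well above background for Hoxa10 and none for Hoxa11. Hoxa11os, an RNA antisense to Hoxa11, was at 8.63 to 9.09 in J1-serum and at 5.18 to 7.13 in J1-2i, at least 3.60-fold lower (limma, adjusted p 1.9e-05). It was among 4 tested of 19 listed noncoding RNAs of the Hox loci and related homeobox genes, of which Gbx1 was at least 1.64-fold higher in J1, with 1 of 3 J1-2i arrays well above background, and Gsx1 lower with 2i by at least 2.10-fold (TKO) and 2.36-fold (3B3l).

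The fibroblast and primitive endoderm markers moved with the genes that were lower in J1-2i. Of 14 tested fibroblast markers 0 were called higher and 11 lower with 2i in J1, and of 10 primitive endoderm markers 9 were lower, where 10.1% of all tested genes were higher and 12.5% lower by the same rule. The fibroblast sum fell from 127400 to 155000 in J1-serum to 98550 to 119000 in J1-2i, and 13 and 6 of the 14 markers were well above background on every array. The collagen gene Col1a1 was at 12.22 to 13.02 in J1-serum, 5.47 to 6.76 in J1-2i, 8.61 and 9.75 in TKO-serum, and 11.60 and 12.57 in 3B3l-serum. Their part in the J1 differences of Hoxb2, Hoxa9, Hoxa10 and Hoxa11, and in the serum comparisons with J1, was not tested. Hoxb2 was also lower with 2i in TKO, which was grown without feeders in both media, where 0 fibroblast markers were higher and 4 lower, and of the primitive endoderm markers 0 were higher and 5 lower, against 6.79% and 8.97% of all tested genes. The summed levels did not fall in TKO. The fibroblast sum was 80220 and 82780 in TKO-serum and 109700 to 112300 in TKO-2i. The primitive endoderm sum was 12000 and 12870 against 12780 to 14870.

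Markers of early mesoderm and the primitive streak, where Hox genes are first switched on in the embryo, were in part higher in 2i as well. Of 7 tested, 2 were called higher and 0 lower with 2i in J1, 3 and 0 in TKO, and 3 and 2 in 3B3l, against shares over all tested genes of 10.1% and 12.5%, 6.79% and 8.97%, and 5.65% and 7.9%. Eomes and Gsc were called higher in every line, and the 2 lower in 3B3l were Hand1 and Wnt3, while the median log2 difference over the 7 was -0.45, 0.26 and 0.08. Eomes, a T-box factor of the streak, differed by 2.23 (SE 0.18), 1.13 (SE 0.22) and 1.82 (SE 0.24) as log2 differences (limma, adjusted p 4.9e-07, 0.0014 and 9.2e-05). The summed level of the 7 markers was 2561 to 2965 in J1-serum and 3457 to 4258 in J1-2i. It was 2849 and 2917 in TKO-serum, 3464 to 4077 in TKO-2i, 4079 and 4299 in 3B3l-serum, and 5567 and 5644 in 3B3l-2i, so the media did not overlap within any line. The part of these markers in the Hox genes called higher was not tested.

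**Figure D5:**
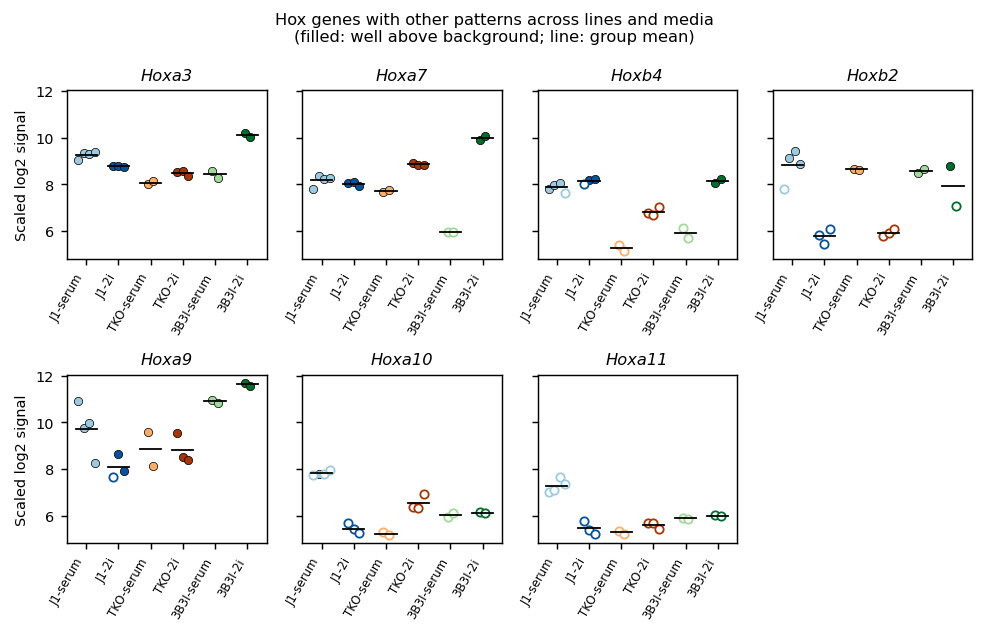
Scaled log2 signal (vertical axis) of 7 Hox genes by group (horizontal axis), with 1 point an array, filled where well above background, and a line at the group mean. Hoxa7 is higher in 2i in TKO and 3B3l, Hoxb2 drops in J1 and TKO, and Hoxa10 and Hoxa11 have their highest values on the 4 J1-serum arrays.

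The lines were then compared within a medium, which asks whether the altered DNA methyltransferases went with other Hox levels. Both serum comparisons share the J1-serum arrays. In TKO-serum 6 of the 18 tested genes were called lower than in J1-serum and 0 higher, where 9.86% of tested genes were lower and 9.19% higher. Of the fibroblast markers 9 of 14 and of the primitive endoderm markers 9 of 10 were lower and 0 higher in this comparison, against 8.72% and 7.73% of all genes by their highest tested probe, and their part in the Hox differences was not tested. At an unadjusted limma p under 0.05, 2 were higher and 10 lower. Over all 39 genes without the filter, 9 (23.1%) were lower and 1 (2.56%) higher, against 8.03% and 6.83% of all genes. On the log2 scale Hoxa3 differed by -1.21 (SE 0.13; limma, adjusted p 9.8e-06). Hoxb4 was at least 2.30-fold, Hoxb9 at least 2.09-fold and Hoxb13 at least 1.82-fold lower (well above background on 3, 2 and 1 of the 4 J1-serum arrays), and Hoxc6 was called with neither group well above background. Hoxb9 was at -0.96 within the first slide, and Hoxb9 and Hoxc6 at -0.85 and -0.96 with normexp, under 2-fold. With slide as a block Hoxd13 was called higher in TKO-serum (1.00; limma, adjusted p 0.00087).

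In 3B3l-serum 6 tested genes were lower than in J1-serum and 0 higher, where 11.1% of tested genes were lower and 11.6% higher. The fibroblast markers counted 7 lower and 1 higher of 14 and the primitive endoderm markers 10 lower and 0 higher of 10, against 9.28% and 9.98% of all genes by the same rule, and again their part was not tested. At an unadjusted limma p under 0.05, 0 were higher and 10 lower. Without the filter 8 of 39 (20.5%) were lower and 2 (5.13%) higher, against 8.78% and 8.75%. Hoxa7 was at least 1.29-fold, Hoxb4 at least 1.04-fold and Hoxc13 at least 1.30-fold lower, with Hoxb13, Hoxc6 and Hoxd4 called at levels that allow no fold. Only Hoxa7 stayed called with normexp, and with slide as a block Hoxd8 was also called lower (-1.07; limma, adjusted p 0.0079). On the one slide that held both groups, J1-serum replicate 1 was at 7.80 for Hoxa7 and the 3B3l-serum arrays at 5.94 and 5.97, and for Hoxc13 at 7.95 against 7.10 and 6.64.

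In 2i, 4 tested Hox genes were higher and 1 lower in TKO than in J1, where 4.51% of tested genes were higher and 4% lower. Without the filter 5 of 39 (12.8%) were higher and 1 (2.56%) lower, against 3.29% and 3%. The genes higher in TKO-2i were Hoxc6 (1.38, SE 0.15, with 1 of 3 J1-2i arrays well above background), Hoxd4 (1.27, SE 0.15), Hoxd8 (1.40, SE 0.23) and Hoxd9 (1.69, SE 0.18) on the log2 scale. Each had all 3 TKO-2i arrays above all 3 J1-2i arrays. Hoxb4, well above background on 2 of 3 J1-2i arrays, was at least 2.29-fold lower in TKO-2i, and with normexp at -0.79 it was not called. With slide as a block Hoxa4 was called higher as well (2.10; limma, adjusted p 0.032).

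In 3B3l-2i, 7 tested Hox genes were higher and 1 lower than in J1-2i, where 9.25% of tested genes were higher and 7.7% lower. Without the filter 8 of 39 (20.5%) were higher and 1 (2.56%) lower, against 8.24% and 6.06%. Hoxa3 (1.34, SE 0.14), Hoxa7 (1.96, SE 0.14), Hoxa9 (3.57, SE 0.65, with 2 of 3 J1-2i arrays well above background) and Hoxb13 (1.67, SE 0.15) were higher on the log2 scale, and Hoxb2, well above background on 1 of 2 3B3l-2i arrays, was at least 2.18-fold higher. Hoxa4 was called with neither group well above background on any array, and Hoxc6, the gene called lower, was at levels that allow no fold. The Hoxa4 call was lost without J1-2i replicate 2 (2.87; limma, adjusted p 0.056) or replicate 3 (2.80; limma, adjusted p 0.064). With normexp Hoxc6 was at -0.48, under 2-fold and not called. J1-2i and 3B3l-2i shared no slide, so line and slide cannot be told apart within this pair. A fit with slide as a block, which ties the slides through J1-serum, ended the calls of Hoxa9 (2.00, adjusted p 0.091) and Hoxa4 (0.99, adjusted p 0.58), and called Hoxd8 lower in 3B3l-2i (-1.25; limma, adjusted p 0.02). It left 5 genes higher and 2 lower. Without 3B3l-2i replicate 1 the call of Hoxb2 was lost (1.30, adjusted p 0.059).

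The 2i responses themselves were compared between lines, and both comparisons share the J1 arrays. Markers of other cell types moved with these differences. For TKO minus J1, 10 of 14 fibroblast and 9 of 10 primitive endoderm markers were called above 0 and 0 below, against 7.75% and 7.47% of all genes by their highest tested probe. For 3B3l minus J1 the counts were 9 of 14 and 10 of 10 above and 0 below, against 8.6% and 8.56%. Their part in the Hox differences was not tested. The TKO minus J1 difference of the log2 responses was called above 0 for 10 tested Hox genes and below 0 for 0, where it was above for 8.84% of tested genes and below for 8.58% (12 and 0 Hox genes at an unadjusted limma p under 0.05). Without the filter the counts were 15 of 39 (38.5%) and 0, against 7.1% and 6.1% of all genes. Among the called differences of Hox genes named here, that of Hoxa7 alone came from 4 groups that each had arrays well above background. For 3B3l minus J1 the difference was called above 0 for 8 tested Hox genes and below 0 for 0, against 10.1% and 9.87% of tested genes (10 and 1 Hox genes at an unadjusted limma p under 0.05). Without the filter 11 of 39 (28.2%) were above and 0 below, against 7.96% and 6.85%. For Hoxb2 the sign stands for a smaller drop in 3B3l, and among the called differences named here that of Hoxa3 alone (2.20) came from 4 groups that each had such arrays. With slide as a block Hoxa9 was called above 0 too (2.01; limma, adjusted p 0.046). For Hoxc4, the response in TKO was 0.97 and in 3B3l 0.80 above that in J1, under 2-fold in both.

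Known regulators of Hox genes were counted from a list of 21 Cdx and retinoic acid genes, of which 19 were tested. Each gene was taken by its tested probe of highest mean. With 2i in J1 3 were higher and 9 lower, where the same rule gave 10.1% higher and 12.5% lower over all tested genes. In TKO 2 were higher and 2 lower (6.79% and 8.97% over all), and in 3B3l 3 and 3 (5.65% and 7.9%). Cdx1, a homeodomain activator of Hox genes and a Wnt target, was at 8.34 to 8.70 in J1-serum and 11.40 to 11.57 in J1-2i. It went from 8.11 and 8.02 to 13.08, 12.80 and 12.65 in TKO and from 10.26 and 10.48 to 15.06 and 16.04 in 3B3l. The log2 differences of Cdx1 were 2.98 (SE 0.20), 4.78 (SE 0.24) and 5.18 (SE 0.26) (limma, adjusted p 6.6e-08, 1.3e-08 and 2e-08). No array of Cdx1 overlapped between media within a line.

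Cdx2, the trophoblast and hindgut factor of the same family, was at 7.27 to 7.69 in J1-serum and 5.04 to 5.52 in J1-2i, at least 1.58-fold lower, with 1 of 4 J1-serum arrays well above background. It was at least 3.02-fold higher with 2i in TKO, from 5.63 and 5.39 to 8.08, 8.28 and 8.42, and at 9.77 and 9.66 against 10.28 and 10.05 in 3B3l. So Cdx2 was lower with 2i in J1 and higher in TKO. Cyp26a1, the enzyme that degrades retinoic acid and is itself induced by it, was lower in every line, in J1 at least 11.5-fold, in TKO at least 2.54-fold and in 3B3l at least 2.71-fold (limma, adjusted p 4.8e-07, 0.0011 and 0.0061). Cyp26b1 and Stra6, a retinol transporter, were at least 2.76-fold and 3.82-fold lower in J1. Other retinoic acid genes of the list went the other way there. Aldh1a3 was at 7.79 to 8.30 in J1-serum and 9.74 to 9.86 in J1-2i, and Aldh1a2 at 8.01 to 8.39 and 9.14 to 9.42. In TKO the receptor Rarg differed by -1.37 on the log2 scale, and in 3B3l the retinol dehydrogenase Rdh10 by -2.54, while Rarb was at least 2.05-fold higher.

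Hox proteins bind DNA with Pbx and Meis partners. Of 10 such cofactors, 1 was higher and 3 lower with 2i in J1, 1 and 1 in TKO, and 1 and 2 in 3B3l. The shares over all tested genes by the same rule are those just given for the regulators, from 5.65% to 10.1% higher and from 7.9% to 12.5% lower. The higher gene was Meis2 in each line, at log2 differences of 3.59, 2.54 and 1.94. The lower genes were Meis3 (-1.66, with 2 of 3 J1-2i arrays well above background), Pbx4 (-1.25) and Pbx2 (-1.24) in J1, Meis1 (-1.53) in TKO, and Meis1 (at least 2.54-fold) and Pknox2 (at least 2.19-fold) in 3B3l.

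The genes of the Polycomb complexes themselves were counted next. Of 12 genes of Polycomb repressive complex 2 (PRC2), 0 were called with 2i in J1 by limma (4 higher and 2 lower at an unadjusted p under 0.05), and 0 were higher and 2 lower in both TKO and 3B3l. These were the cofactor Jarid2 (-1.03 and -1.02 on the log2 scale) and Phf19 (-1.74 in TKO, with 1 of 3 TKO-2i arrays well above background, and at least 3.53-fold lower in 3B3l). By any tested probe, as the Hox genes were counted, 1 PRC2 gene was higher and 1 lower in J1, against 11.6% and 13.7% of all tested genes. That rule gave 1 and 2 in TKO (7.66% and 10.1% over all) and 0 and 3 in 3B3l (6.32% and 8.57%). By the probe of highest mean, used for the other counts here, the shares over all tested genes were 10.1% higher and 12.5% lower in J1, 6.79% and 8.97% in TKO, and 5.65% and 7.9% in 3B3l. Of 19 tested genes of Polycomb repressive complex 1 (PRC1), 3 were higher and 3 lower in J1, 3 and 2 in TKO, and 2 and 3 in 3B3l. Bmi1, a core PRC1 member, was higher by 2.22, 1.17 and 2.01 on the log2 scale in J1, TKO and 3B3l. Phc3 was higher in TKO (1.19). Pcgf5 (-1.85, -1.19 and -1.08) and Phc1 (-1.26, -1.41 and -1.10) were lower in each line. Of 12 tested Trithorax genes and demethylases, which oppose Polycomb, Wdr5 was higher in J1 (1.06) and Kdm6b in TKO (1.04).

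Other developmental transcription factors that are textbook Polycomb targets were counted beside the Hox genes. Of 25 tested, 4 were higher and 10 lower with 2i in J1, 4 and 6 in TKO, and 4 and 5 in 3B3l. Over all tested genes 10.1% were higher and 12.5% lower in J1, 6.79% and 8.97% in TKO, and 5.65% and 7.9% in 3B3l by this rule. Those lower in J1 included Gata6 (at least 49.1-fold), Foxa2 (at least 8.11-fold) and Sox17 (-4.00, with 1 of 3 J1-2i arrays well above background), and Gata4 (at least 12.0-fold), which are also primitive endoderm genes. Wt1, a kidney and gonad factor, was lower in all 3 lines, by at least 4.04-fold, 10.6-fold and 6.26-fold in J1, TKO and 3B3l. Pax6, an eye and brain factor, was lower with 2i by at least 10.3-fold (TKO) and 2.39-fold (3B3l), and Hand1, a heart and trophoblast factor, at least 1.69-fold lower in 3B3l. Tbx3, a pluripotency and limb gene, was higher by 2.36, 2.03 and 1.44 on the log2 scale in J1, TKO and 3B3l. The difference between this list and the Hox genes was not tested.

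The genes just outside the clusters were read from the 3 nearest protein-coding genes with a tested probe on each side, 24 in all. With 2i 2 were higher and 1 lower in J1, 1 and 1 in TKO, and 1 and 0 in 3B3l, against shares over all tested genes of 10.1% and 12.5%, 6.79% and 8.97%, and 5.65% and 7.9%. They were Calcoco2 (1.85) and Copz2 (1.04) in J1, Smug1 in TKO (1.14) and 3B3l (1.49), and Ttll6, called lower in J1 and TKO, where its 2i values were not well above background. The median log2 difference over the 24 was 0.22 in J1, 0.23 in TKO and -0.01 in 3B3l.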

How the data were processed

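RNA was labelled with Cy3 and hybridised to 16 Agilent mouse arrays of 62976 spots (59305 non-control). Per the file headers, the authors read the images with Agilent Feature Extraction 11.5.1.1, and the deposited processed signal is a fluorescence intensity after background subtraction, with no scaling between arrays. A further table deposited by the authors, with log2 values of 30170 probes, was used here only as an alternative; in 13 of 16 columns it matched another replicate of the same group best and in 0 another group (lowest best r 0.998), so its replicate numbers were not used. 

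Spots of a probe were averaged without outlier spots. Values were put on the log2 scale, and each array was shifted so that its 75th percentile met the mean of these percentiles. Genes were named through RefSeq identifiers (28026 probes with a name). Of 55681 probes, 27126 passed the filter (well above background on all arrays of 1 group or more) and were tested with limma 3.58.1 (R 4.3.3), 2-sided, with Benjamini-Hochberg adjustment over all of them. Named were all Hox genes with a tested probe, by the probe with the highest mean; of each list, up to the 4 largest called changes a comparison; and the flanking genes. Hoxa10, Hoxa11, Tbx3, Aldh1a2 and Aldh1a3 were added after their values were seen. Values of some genes are not reported here, though these genes stay in the counts. The members and lists were chosen with earlier results of these data known. On data simulated for 2i against serum in J1 over 27126 probes, the test recovered 83% of log2 changes of 1.5 and 88% of changes of 2, with 3 false calls. Promoter sequences were from RefSeq on GRCm38.p6; overlapping genes may share signal, and the build of the arrays' own probe design was not used for coordinates. The number of arrays, 2 to 4 a group, limits the precision. Alternatives tried were the background correction, the scaling, the filter, the fold limit, slide and replicate number as blocks, and each array left out.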

Additional observations from a re-analysis of the deposited data

Results flagged for a closer look

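The response to 2i differed from that of J1 by the limma test of the difference itself (adjusted p of at most 0.05 and at least 2-fold) for these Hox genes. In TKO the fitted TKO minus J1 difference of the log2 responses was 1.26 for Hoxa7, 1.27 for Hoxb4, 1.31 for Hoxb9, 1.47 for Hoxb13, 3.25 for Hoxc6, 1.57 for Hoxc9, 1.56 for Hoxd4, 2.17 for Hoxd8 and 1.42 for Hoxd9. In 3B3l the difference from J1 was 2.2 for Hoxa3, 4.18 for Hoxa7, 2.37 for Hoxb2, 1.96 for Hoxb4, 3.3 for Hoxb13, 1.12 for Hoxc13 and 1.76 for Hoxd4. The methods name feeder cells for J1 in serum. Fibroblast markers were called above 0 in the same differences for 10 (TKO) and 9 (3B3l) of 14, and primitive endoderm markers for 9 and 10 of 10, with 0 below. Their part in the differences was not tested. For Hoxb2 the sign stands for a smaller drop in 3B3l than in J1. Except for Hoxa7 in TKO and Hoxa3 in 3B3l, at least 1 of the 4 groups behind each difference was not well above background on any array, so the other sizes are fitted values and not folds of a measured level. With normexp the differences in TKO fell below 2-fold for Hoxa7 (0.93), Hoxb4 (0.95), Hoxb9 (0.88) and Hoxb13 (0.72), and those in 3B3l for Hoxc13 (0.59) and Hoxd4 (0.85). Hoxb4 in TKO was also under 2-fold with quantile normalization (0.85) and in the authors' value table (0.83). Without 3B3l-serum replicate 2 the Hoxc13 difference was 0.89, under 2-fold, and the Hoxb2 call was lost without 3B3l-serum replicate 1 (adjusted p 0.058) or 3B3l-2i replicate 1 (adjusted p 0.084).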

How the results depend on the processing

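Of 194 recomputed counts, 177 stayed within 1.5 times the reported count and 17 did not. Of 2848 recomputed differences of single genes, 2742 kept their side of the call, 47 lost it, 59 gained it and 0 called differences changed sign; 23 of the losses came with normexp and 16 with an array left out. With normexp the called Hox genes were 7 for 2i in J1 (4 higher, 3 lower), 1 for 3B3l against J1 in serum and 6 for the TKO minus J1 difference of responses. Among probes well above background on all 16 arrays the counts were 0, 1 and 2 for 2i in the J1, TKO and 3B3l lines, 2 (serum) and 0 (2i) for TKO against J1, 0 (serum) and 2 (2i) for 3B3l against J1, and 1 and 2 for the differences of responses in TKO and 3B3l; the filter leaves fewer genes to test. With no filter 10 genes were called for TKO and 10 for 3B3l against J1 in serum, and with no fold limit 12 and 10 for TKO against J1 in serum and in 2i. Counting Hox genes well above background on at least 1 array gave 14 in J1-serum.

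Leaving out each array in turn gave 9 to 12 called genes for 2i in J1, 13 in TKO and 12 to 13 in 3B3l, 6 to 7 and 5 to 6 for TKO against J1 in serum and 2i, 6 to 8 and 6 to 8 for 3B3l, and 10 to 11 and 7 to 9 for the differences in TKO and 3B3l. With the replicate number as a block the 2i comparisons of J1, TKO and 3B3l called 11, 13 and 13 genes, with 8 and 5 for TKO and 6 and 8 for 3B3l against J1 in serum and 2i, and 11 and 9 for the differences. Arrays of the same number did not deviate together (mean r -0.0082 over 33 pairs, against 0.0034 over 72 others), so the numbers do not pair the arrays. With slide as a block the 2i counts were 11, 13 and 13, those for TKO against J1 7 and 6 in serum and 2i, those for 3B3l 7 and 7, and the differences 10 and 9. Signal over background limits the values: 18 of 39 Hox genes were on no array well above it, and most rises are known only as lower bounds. Other scalings shifted the median of all genes by at most -0.23 (3B3l against J1 in serum).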
